A study of Mus musculus with 4 samples.

Results

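The genes of interleukin-1 and interleukin-36 were examined in chromatin accessibility data from keratinocytes of imiquimod-treated mouse skin. Il1a and Il1b encode the IL-1 ligands, Il36a, Il36b and Il36g the IL-36 ligands, and Il1rn and Il36rn the antagonists that occupy the same receptors without signalling. Open chromatin was profiled by ATAC-seq, in which the transposase Tn5 inserts adapters where DNA is not covered by nucleosomes. Peaks of the 4 libraries that overlapped by at least 1 bp were merged, which gave 82641 regions, and those that overlapped the genes with 25 kb added on each side were kept, whatever their signal. The 7 genes lie on mouse chromosome 2 in 2 places whose nearest genes are 104.9 Mb apart, so each place was taken separately. The result was 50 regions, of which 32 lay around the IL-36 genes and Il1rn (chr2:24128161-24376494) and 18 around Il1a and Il1b (chr2:129274610-129396139). A single stretch from the first to the last gene would have held 3243 regions, nearly all of them far from any of the 7 genes. Coordinates are those of mm10.

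The 2 groups were WT mice and Mapk8-KO mice, with 2 libraries each, all from animals that received a cream with 5% imiquimod (Aldara) on the skin for 8 days. JNK1, a kinase activated by stress and cytokines, is the product of Mapk8. According to the methods of the study, the mice were females of 8 to 12 weeks on a C57BL/6 background, littermates served as controls, and the epidermal deletion of the floxed Mapk8 gene was driven by Cre under the keratin 14 promoter, which is active in basal keratinocytes. Keratinocytes were sorted as EpCam+ CD49f hi cells from a suspension also stained for CD45, CD31 and CD140a. How many mice went into a library is not stated, and no untreated library was analysed here, so the values show treated skin alone. The 2 groups are compared to ask what accessibility depends on JNK1 in these cells.

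Keratinocytes are a main source of both families. IL-1α is stored in resting cells and released on damage, IL-1β needs cleavage by caspase-1, and the IL-36 cytokines are made by inflamed epidermis and are cut to their active form by proteases. Both families signal through receptors that share the accessory chain IL-1RAP and act through MyD88, NF-κB and the MAP kinases, among them JNK. JNK phosphorylates c-Jun, a subunit of the transcription factor AP-1, which binds the letters TGACTCA or TGAGTCA.

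The sequences below come from the GRCm38 assembly (the same as mm10) and are 121 bases long, centred on a summit. They are shown because each lies under the strongest summit of a region near one of the genes, and the capitals mark the motif named for each window. Il36b (chr2:24152887-24153007, plus strand, just upstream of the start), Il1rn (chr2:24336716-24336836, plus strand, upstream of the first start) and Il1a (chr2:129309962-129310082, minus strand, across the start) hold an AP-1 motif, as does a region 18350 bp upstream of Il1rn (chr2:24318300-24318420, plus strand). The window of Il1b (chr2:129367313-129367433, minus strand) crosses the edge of a coding exon within the gene, and its AP-1 motif lies in that exon.
Il36b promoter: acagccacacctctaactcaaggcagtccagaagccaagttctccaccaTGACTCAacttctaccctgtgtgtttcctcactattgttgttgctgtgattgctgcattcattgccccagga
Il1rn promoter: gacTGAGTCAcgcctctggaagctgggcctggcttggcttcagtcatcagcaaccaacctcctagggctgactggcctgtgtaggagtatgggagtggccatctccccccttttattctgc
Il1rn upstream region: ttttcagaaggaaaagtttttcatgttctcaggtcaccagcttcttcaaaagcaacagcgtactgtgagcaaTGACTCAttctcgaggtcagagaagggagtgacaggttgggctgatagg
Il1a promoter: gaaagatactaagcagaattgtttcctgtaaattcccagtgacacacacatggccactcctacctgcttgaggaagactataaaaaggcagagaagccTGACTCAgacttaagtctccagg
Il1b exon: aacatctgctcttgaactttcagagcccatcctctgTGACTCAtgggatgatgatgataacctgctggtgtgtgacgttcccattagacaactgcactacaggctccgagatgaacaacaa
The windows of Il36g (chr2:24186302-24186422, plus strand) and Il36a (chr2:24215170-24215290, plus strand) hold no AP-1 motif, and their capitals mark a STAT motif and an NF-κB motif. The Il36a window also holds a C/EBP motif (chr2:24215272-24215279), left in lower case.
Il36g promoter: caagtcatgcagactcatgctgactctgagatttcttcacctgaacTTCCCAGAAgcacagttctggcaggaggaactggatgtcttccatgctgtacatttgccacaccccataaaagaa
Il36a promoter: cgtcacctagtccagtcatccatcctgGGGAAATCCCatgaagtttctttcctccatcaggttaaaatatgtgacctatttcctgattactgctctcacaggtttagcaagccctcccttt

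The Il36b stretch is present in a second copy. Alignment of the reference showed that 13.4 kb with Il36b (chr2:24148635-24162037) recurs in inverted orientation upstream of Il36rn (chr2:24259361-24272043), around the pseudogene Gm13409, with 94.0% of 12114 aligned bases identical. The Il36b promoter window above and its counterpart (chr2:24267605-24267726, minus strand) differed at 3 of 121 aligned bases, beside 1 inserted base, and the AP-1 motif was the same.
Copy upstream of Il36rn: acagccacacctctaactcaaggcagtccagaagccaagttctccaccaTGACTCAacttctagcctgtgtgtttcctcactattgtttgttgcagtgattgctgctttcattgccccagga
Both copies were open at matching positions. The Il36b promoter region (chr2:24152562-24153239) was paired with a region 8906 bp upstream of Il36rn (chr2:24267399-24268048), and a region 2922 bp upstream of Il36b (chr2:24149738-24150239) was paired with one 6050 bp upstream of Il36rn (chr2:24270633-24270904). The third region of the Il36b copy, in its intron (chr2:24157400-24157563), had 99.4% identity to a stretch of the other copy where no library had a call. The authors removed reads that mapped to several places, and read length is not given in the sources used here. The longest identical runs were 87 bases for the promoter pair and 64 bases for the other pair, so reads of the 2 copies can be told apart only where they reach a difference, and the levels of all 6 regions in the copies are uncertain for that reason.

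The 4 libraries differed in depth more within than between genotypes. Summit pileup, the number of fragments over a summit, was recovered from the deposited fold and p-value. Its median over the 40159 regions called in all 4 libraries gave the relative depth, which was 1 for WT 1 by definition, 0.694 for WT 2, 1.10 for Mapk8-KO 1 and 0.612 for Mapk8-KO 2. Mapk8-KO 1 had calls in 42 of the 50 regions, WT 1 in 39, WT 2 in 27 and Mapk8-KO 2 in 23, which is also their order in depth. A depth-scaled pileup is the pileup divided by the relative depth. Among keratinocyte markers, 8 of 8 had a called region within 1 kb of a start in at least 1 library, whereas none of 6 T cell markers, including Ptprc, and neither Cd207 nor Cd74 had one. The summed depth-scaled pileup of the keratinocyte markers was 328 and 294 in WT and 510 and 439 in Mapk8-KO. Krt14, the gene whose promoter drives Cre, gave 38.0 and 24.5 in WT and 181 and 178 in Mapk8-KO. The other 7 keratinocyte markers summed to 290 and 270 in WT and 329 and 261 in Mapk8-KO, which overlapped. The Langerhans and dendritic cell list had 1 of 6 markers with a call (H2-Ab1, 20 and 17.3 in WT against 24.5 and 31.0 in Mapk8-KO). The macrophage list had 1 of 6 (Cd68, 41.0 and 38.9 in WT against 30.9 and 32.7 in Mapk8-KO). The neutrophil list had 1 of 5 (Cxcr2, 68.0 in WT 1, 45.4 in Mapk8-KO 1, no call in either replicate 2). Melanocyte, fibroblast and endothelial markers had calls for 3 of 5, 2 of 5 and 3 of 5 genes, and the summed levels were 222 and 229 in WT against 254 and 302 in Mapk8-KO for melanocytes, 63 and 69.2 against 74.4 and 73.5 for fibroblasts, and 86 and 69.2 against 87.1 and 63.7 for endothelium. The groups thus did not overlap for Cd68, which was higher in WT. Nor did they overlap for H2-Ab1, the full keratinocyte sum with Krt14, and the melanocyte and fibroblast sums, all higher in Mapk8-KO. The part of these markers in the differences below was not tested.

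**Figure D1:**
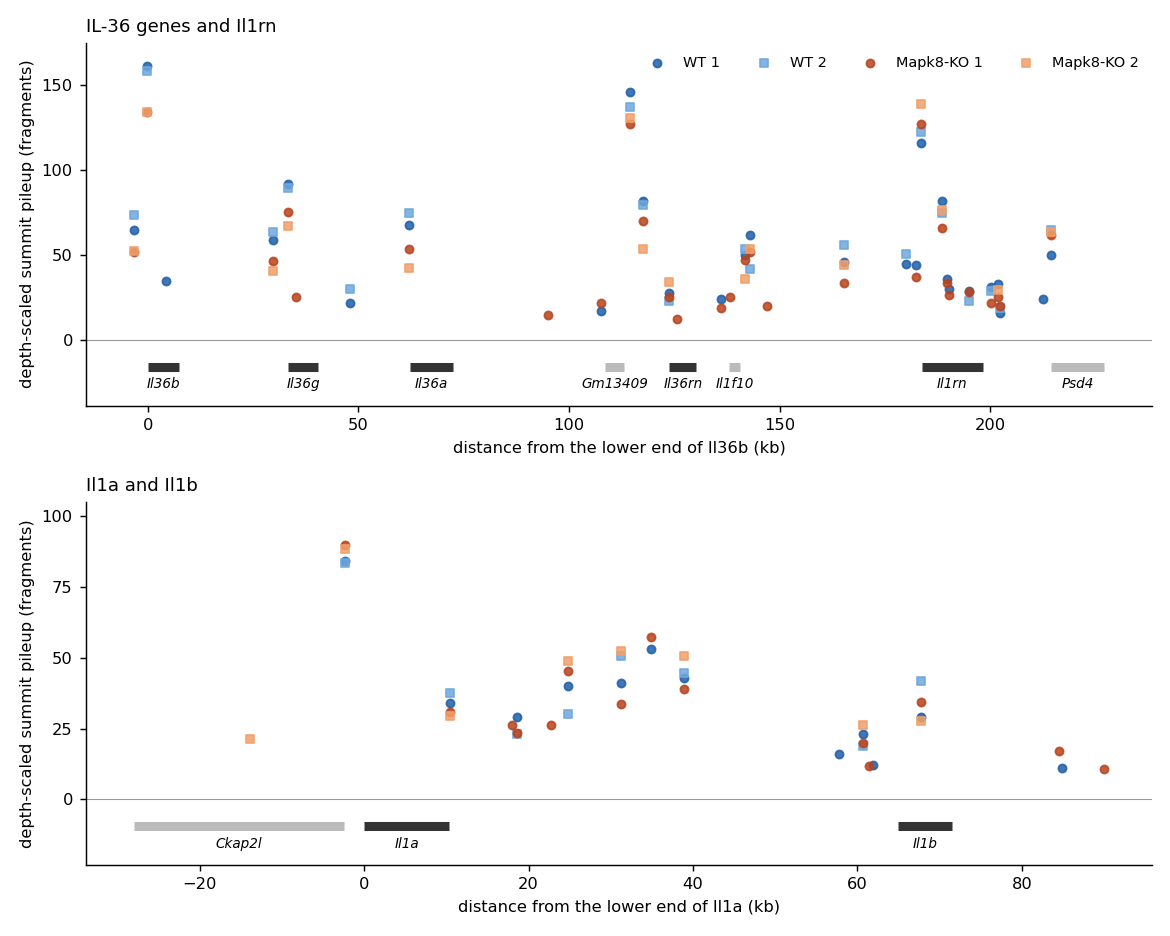
Depth-scaled summit pileup (fragments, vertical axis) of each called region in each library against distance in kb from the lower end of Il36b (top) and Il1a (bottom). Blue marks are WT, orange marks Mapk8-KO, dark bars the genes examined and grey bars neighbours. The highest region stands at the Il36b promoter, where WT 1 and WT 2 (161 and 159) lie above Mapk8-KO 1 and 2 (both 134), and no mark stands at the right, upstream end of Il1b.

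Both places were dense in open chromatin. The surroundings of the IL-36 genes and Il1rn held 12.9 regions per 100 kb, and those of Il1a and Il1b 14.8, against 3.03 over chromosomes 1 to 19, X and Y. Called in all 4 libraries were 21 of the 50 regions (42%, against 48.6% of all regions), 14 around the IL-36 genes and Il1rn and 7 around Il1a and Il1b. Called in 1 library alone were 16 (32.0%, against 21.7% of all regions), and 10 of these were in Mapk8-KO 1, the deepest library (20%, against 8.47% of all regions).

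The IL-36 ligand genes all had an open promoter, with the order Il36b, Il36g, Il36a in summit pileup. At the Il36b promoter WT 1 had a pileup of 161 fragments, WT 2 of 110, Mapk8-KO 1 of 148 and Mapk8-KO 2 of 82. Scaled for depth, this was 160 ± 1.75 in WT and 134 ± 0.257 in Mapk8-KO (mean ± SD, n = 2). In pooled cells, fewer cells with an open site and less opening per cell cannot be told apart. The groups did not overlap, and the Il36b promoter ranked above 93.9% of the 40159 regions in pileup even in the lowest library.

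The Il36g promoter (chr2:24186229-24186809) came next, with depth-scaled pileups of 92.0 and 89.4 in WT and 75.3 and 67.0 in Mapk8-KO. The Il36a promoter (chr2:24214819-24215728) had 68.0 and 74.9 in WT and 53.5 and 42.5 in Mapk8-KO. At both genes each Mapk8-KO library lay below each WT library. The Il36a promoter was the furthest apart of all 21 regions on this scale, 1.50-fold higher in WT, against 1.28-fold at Il36g and 1.19-fold at Il36b. Of these, the neighbouring levels of Il36g and Il36a in WT, 90.7 ± 1.87 and 71.5 ± 4.91, were separated by more than their spread, as were those of Il36b and Il36g.

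**Figure D2:**
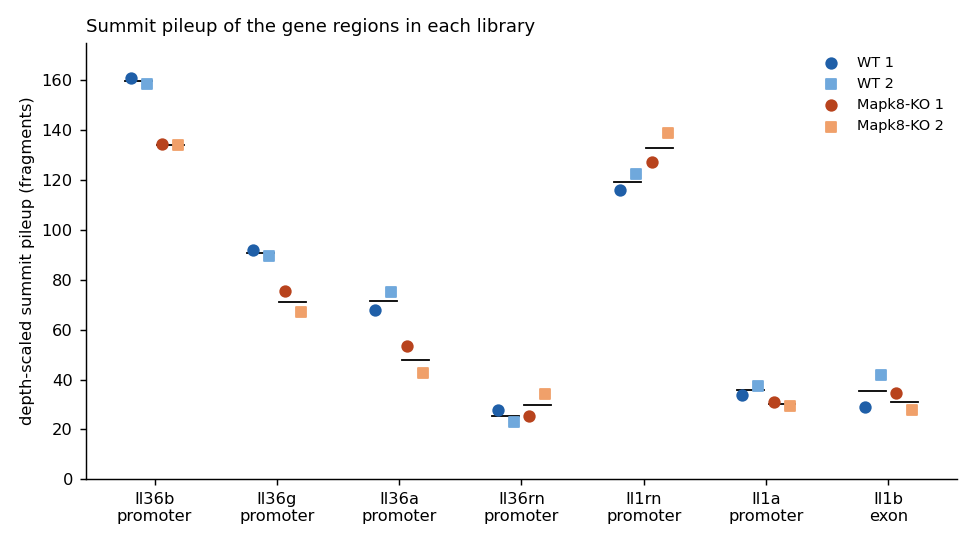
Depth-scaled summit pileup (fragments, vertical axis) at 6 promoters and at the Il1b exon region. Points are the libraries (circles replicate 1, squares replicate 2) and horizontal bars the mean of each group of 2. Il36b, Il36g, Il36a and Il1a have both WT points above both Mapk8-KO points, an order that by fold holds at Il36a and Il1a but not at Il36b and Il36g, Il36rn and Il1b have overlapping groups, and Il1rn has Mapk8-KO above WT, an order that is lost when pileups are scaled by the lowest local background.

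The antagonist genes did not share this pattern. The Il36rn promoter (chr2:24276733-24277276) was, with that of Il1a, the weakest of the 6 promoters, with depth-scaled pileups of 28.0 and 23.1 in WT and 25.4 and 34.3 in Mapk8-KO, which overlapped. The Il1rn promoter (chr2:24336601-24337084) had 116 and 123 in WT, below Il36b by more than the spread, and 127 and 139 in Mapk8-KO, where the level of Il36b lay between them. Mapk8-KO was thus 1.11-fold higher at Il1rn on this scale, and the log2 difference of 0.16 ± 0.17 (SE) became -0.0015 when pileups were scaled by the lowest local background of each library instead. Il1rn has a later pair of starts, and no region covered them. The nearest called region, 1780 bp upstream of these starts (chr2:24343311-24343508), was called in both replicate 1 libraries with pileups of 30 and 29.

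Within Il1rn a further region called in every library lay in the intron between its starts (chr2:24341493-24342034), with depth-scaled pileups of 82.0 and 74.9 in WT and 66.2 and 76.8 in Mapk8-KO, which overlapped. Other regions in or close to the genes were called in some libraries. In Il1rn introns, one (chr2:24342673-24343057) had pileups of 36 in WT 1 and 37 in Mapk8-KO 1 alone, and one (chr2:24347725-24348216) had 29, 16 and 31 in all but Mapk8-KO 2. A region 1155 bp upstream of Il1rn (chr2:24335447-24335698) had 44 in WT 1 and 41 in Mapk8-KO 1. All 3 were missing from the shallow Mapk8-KO 2 library. Intronic regions of Il36b (pileup 35, WT 1), Il36g (chr2:24188181-24188442, 28, Mapk8-KO 1) and Il36rn (chr2:24278603-24279004, 14, Mapk8-KO 1) were each called in 1 deep library.

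The difference at the IL-36 ligand promoters extended to their surroundings. Of the 14 regions called in all 4 libraries around the IL-36 genes and Il1rn, 9 had both WT libraries above both Mapk8-KO libraries in depth-scaled pileup, and 1, the Il1rn promoter, had the reverse. Around Il1a and Il1b the counts were 1 and 2 of 7. Over all 40159 regions, 16.9% had WT above and 24.6% Mapk8-KO above. The 9 regions were the 3 ligand promoters, the regions 2922 bp upstream of Il36b and 3176 bp upstream of Il36g (chr2:24182047-24183300), both regions called in every library in the copy upstream of Il36rn, one region past Il36rn (chr2:24294597-24295009) and the one 18350 bp upstream of Il1rn (chr2:24318107-24318503). WT was 1.10-fold to 1.50-fold higher in these regions. Without one library, 11 to 13 of the 21 regions had WT above, against 29.3% to 31.2% of all regions, and 3 to 7 had Mapk8-KO above, against 36.5% to 46.2%, with 6 without WT 1 and 7 without Mapk8-KO 1. Of the marker values above, the sum of the 7 keratinocyte markers other than Krt14 and the endothelial sum overlapped between the groups. The full keratinocyte, melanocyte and fibroblast sums, Cd68 and H2-Ab1 did not, and their part in these differences was not tested. The summed depth-scaled pileup of the 14 regions was 1107 and 1113 in WT and 971 and 969 in Mapk8-KO, a gap wider than the spread within either group. The 7 regions around Il1a and Il1b summed to 294 and 307 in WT and 293 and 323 in Mapk8-KO, which overlapped. Scaled by the lowest local background in place of depth, the counts with WT above rose to 10 of 14 and 2 of 7, against 29.9% of all regions, with 0 of 14 and 1 of 7 in the other direction, against 11.4%. That scaling moved the median of all regions to -0.10 on the log2 scale, and the median of the 14 regions was then -0.45. These regions are neighbours and 4 of the 9 belong to the copied stretch, so they are not independent of each other.

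The local background, the level the peak caller expects from the fragments around a peak, moved the same way. With no control sample named, it comes from the same library as the pileup, so the 2 measures are not independent. Around the IL-36 genes and Il1rn the background was high, with a median of 3.09 to 4.84 times the lowest background of the library, where all regions had 1.71 to 2.04. At the Il36b promoter the depth-scaled background was 12.4 and 11.9 in WT and 10.3 and 9.35 in Mapk8-KO. At Il36g it was 11.8 and 12.1 against 10.5 and 8.32. Of the 14 regions, 9 had WT above Mapk8-KO in depth-scaled background and 1 the reverse, against 12% and 39.1% of all regions. Scaled by the lowest background of each library instead, the counts were 11 and 0 of 14, against 27% and 11.3% of all regions. In 8.43% of all regions the background stood at its lowest value in every library, and for these the depth scaling alone puts Mapk8-KO above. None of the 14 was such a region. Around Il1a and Il1b 2 of the 7 were such regions. Of the other 5 regions 1 had WT above and 1 had Mapk8-KO above, against 13.07% and 33.45% of the 36774 other regions overall in the atlas. The difference in background among the 9 regions with WT above ran from 1.04-fold at the Il1rn promoter to 1.35-fold at Il36a.

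Since the deposited fold divides pileup by this background, most of the difference did not appear in it. The fold of the Il36b promoter was 12.1 and 12.0 in the WT libraries and 12.1 and 12.3 in the Mapk8-KO libraries, so that the libraries barely differed. That of Il36g was 7.24, 6.70, 6.66 and 6.89, with overlapping groups. Il36a was 12.8 and 12.4 in WT and 11.9 and 9.28 in Mapk8-KO, and here each Mapk8-KO library stayed below each WT library. By fold centred on each library's median, 4 of the 14 regions had WT above and 1 had Mapk8-KO above, against 16.2% and 19.5% of all regions, and around Il1a and Il1b 1 and 2 of 7 did. The 4 were the Il36a promoter, the regions upstream of Il36g and Il1rn named above and the one 6050 bp upstream of Il36rn.

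**Figure D3:**
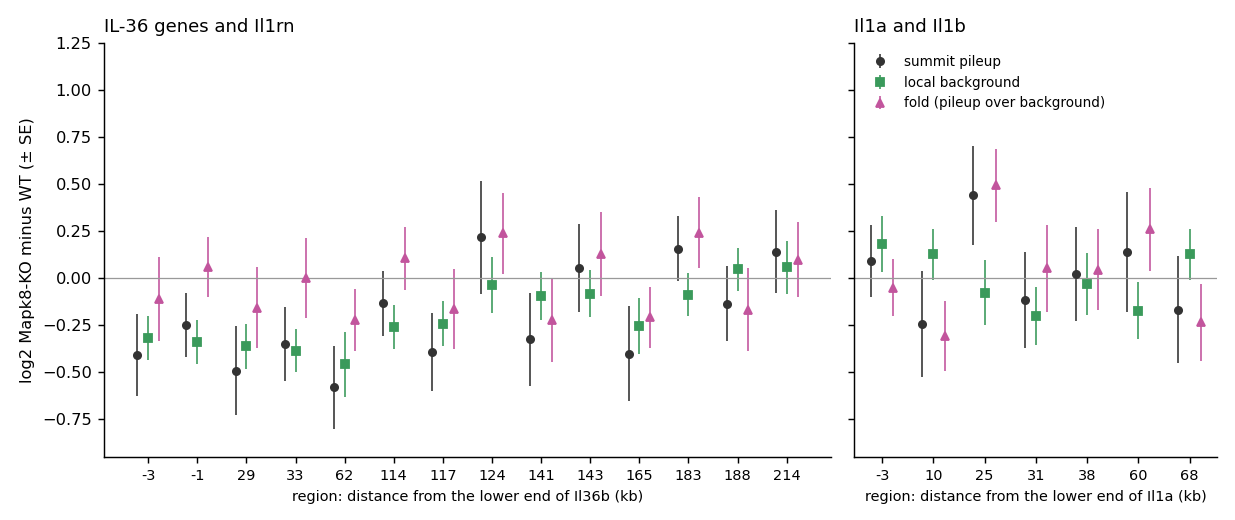
Log2 difference, Mapk8-KO minus WT, with its SE from limma (vertical axis), for the 14 regions around the IL-36 genes and Il1rn (left) and the 7 around Il1a and Il1b (right), in order of position (kb). Black circles are summit pileup, green squares local background and purple triangles fold, each centred on the library median. At the 5 leftmost regions pileup and background lie below 0 together, from -0.25 to -0.58 and from -0.32 to -0.46, while fold lies between -0.22 and 0.06.

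None of the differences passed a test across all regions. In limma on log2 fold with Benjamini-Hochberg adjustment, 0 of 40159 regions (0%) had an adjusted p under 0.05, 2731 had an unadjusted p under 0.05, and of the 21 regions examined 0 and 1 did. The same model on log2 pileup called 243 regions (0.605%), none of the 21. The Il36a promoter had the smallest adjusted p of the 21 on pileup, 0.247, at a log2 difference of -0.58 ± 0.22 (SE). On fold its log2 difference was -0.22 ± 0.17 with an adjusted p of 0.854 in limma. With 2 libraries a group an exact permutation test of one region cannot go below a two-sided p of 0.333. These data therefore leave the differences as values, and a p that misses the threshold does not show equal accessibility.

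By rank of fold, 1 region of the 21 stood higher in WT by at least 10 percentile points in every pair of libraries and 1 stood higher in Mapk8-KO, against 4.65% and 4.07% of all regions. Each count is near its share over all regions. Both of these regions lie by Il1a, one at its promoter and one upstream. The Il1a promoter (chr2:129309837-129310113) had fold percentiles of 69.5 and 70.0 in WT and 57.3 and 40.5 in Mapk8-KO. Its folds were 11.2 and 10.7 against 9.93 and 7.40. The groups did not overlap, but the pileups behind them were small, 34, 26, 34 and 18 fragments. The log2 difference in fold was -0.31 ± 0.19 (SE), with an adjusted p of 0.810 in limma. The local background stood at its lowest value in all 4 libraries, unlike at Il36b and Il1rn.

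The region with the opposite rank (chr2:129324228-129324637) lay 14256 bp upstream of Il1a, between the genes. Its fold percentiles were 45.3 and 25.8 in WT and 68.2 and 68.0 in Mapk8-KO. Pileups were 40 and 21 against 50 and 30, which after depth scaling became 40.0 and 30.3 against 45.4 and 49.0. Both Mapk8-KO libraries were above both WT libraries in pileup, under both scalings, and in fold, with a log2 difference in fold of 0.49 ± 0.20 (SE) and an adjusted p of 0.645 in limma. No motif of those searched lay within 100 bp of its summit. The 2 regions thus differed in opposite directions, each in a count near the share of all regions. Whether one of them acts on Il1a was not measured.

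**Figure D4:**
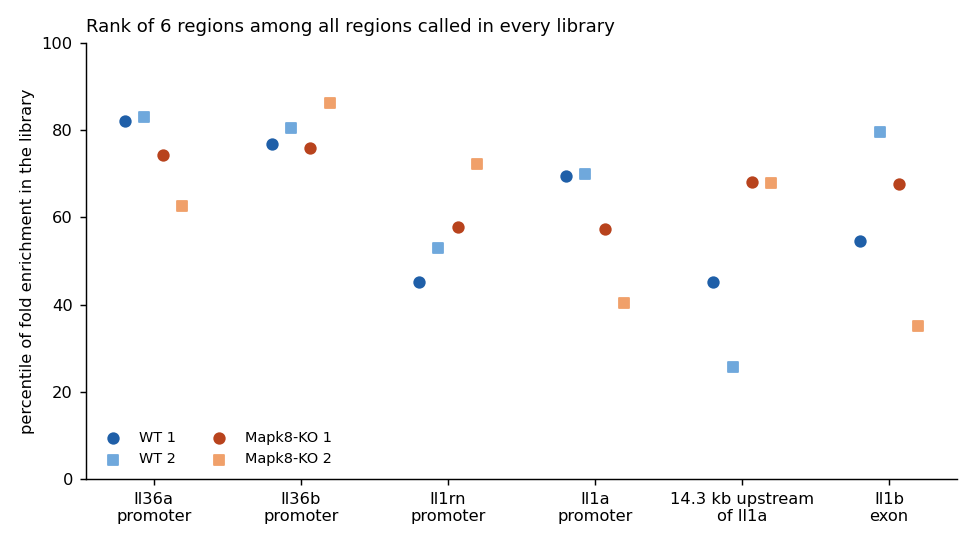
Percentile of fold enrichment (vertical axis, 0 to 100) among the 40159 regions called in all 4 libraries, for 6 regions, with WT in blue and Mapk8-KO in orange. Il1a shows WT above at its promoter (69.5 and 70.0 against 57.3 and 40.5) and Mapk8-KO above 14256 bp upstream (68.2 and 68.0 against 45.3 and 25.8), while the groups overlap at Il36b and at the Il1b exon.

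Il1b had no called region within 2 kb of its start in any library. The lowest pileup called as a peak was 9 fragments for WT 1, 10 for Mapk8-KO 1 and 8 for both replicate 2 libraries, so a weaker signal there would not be seen. The one region inside the gene (chr2:129367285-129367620) was centred on a coding exon, 3519 bp from the start, and was called in all 4 libraries with pileups of 29, 29, 38 and 17. Its fold percentiles were 54.6 and 79.5 in WT and 67.7 and 35.2 in Mapk8-KO, which overlapped widely. The other region called in every library near Il1b (chr2:129360103-129360899) lay 10240 bp from the start beyond the end of the gene and was weak, with pileups of 23, 13, 22 and 16. The strongest region of this place belonged to no IL-1 gene: it lay at the start of Ckap2l, a gene of the mitotic spindle (chr2:129296223-129297624), with fold percentiles from 81.4 to 88.1.

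Regions called in both libraries of one genotype and in neither of the other numbered 2 for WT (4% of the 50, against 2.17% of all regions) and 0 for Mapk8-KO (against 1.65%). One lay 3504 bp upstream of Il1rn (chr2:24333121-24333349), with pileups of 45 and 35 in WT. At the background of the nearest called regions, the lowest pileup that gave a call was 23 in Mapk8-KO 1 and 20 in Mapk8-KO 2, or 20.9 and 32.7 after depth scaling, against 45.0 and 50.4 measured in WT. The other lay 14067 bp upstream of Il36a (chr2:24200947-24201351), with pileups of 22 and 21 in WT, and the like limits of 17 and 9 became 15.4 and 14.7 after depth scaling, against 22 and 30.3 in WT. These limits take the background of called regions 12766 and 13872 bp away, whereas at this region itself the background in both WT libraries was the lowest of the library. Signal below these limits may be present in Mapk8-KO. The WT count rose to 7 without WT 2 and to 6 without Mapk8-KO 1. The Mapk8-KO count rose to 10 without Mapk8-KO 2, 2 without WT 1 and 1 without Mapk8-KO 1. With a library left out fewer libraries have to agree, and the cause of these changes was not tested. The shares of all regions above hold for the rule with 4 libraries, and none was computed for these counts.

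AP-1 was the motif most often found, within 100 bp of the summit in 18 of the 50 regions (36%, 95% Wilson interval 24.1 to 49.9, counting error only), against 23.7% of all regions. Within 50 bp the shares were 20% and 17%. It was in 12 of the 32 regions around the IL-36 genes and Il1rn and in 6 of the 18 around Il1a and Il1b. On both strands, TTGCNNAA (C/EBP) was found in 5 regions (10.0%, against 11.4%), TTCNNNGAA (STAT) in 4 (8.00%, against 5.73%), the NF-κB motif in 4 (8.00%, against 5.58%), the p63 motif in 7 (14.0%, against 9.08%) and the ISRE motif in 0 (against 1.63%). In RefSeq promoters (GRCm38, 300 bases around the start), 6 of the 7 genes had an entry, all but Il36a, and 3 of their 9 promoters held AP-1 (1 each of Il36b, Il1rn and Il1a), against 5.20% of 32851 promoters. Of the 9 regions around the IL-36 genes and Il1rn with higher pileups in WT, 5 held AP-1 within 100 bp, which were the Il36b promoter, the region upstream of it, their counterparts in the copy and the region 18350 bp upstream of Il1rn, and 4 of these 5 lie in the copied stretch. The promoters of Il36g and Il36a held none.

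The other genes of the pathway were counted over regions that overlapped each gene with 2 kb added on each side. Of 36 genes, none had a region called by limma on fold. Among 8 receptor and accessory genes, 23 regions were called in all 4 libraries and 2 ranked higher in Mapk8-KO (4.07% over all regions). One was in Il1rl2, which encodes the IL-36 receptor chain (chr1:40340642-40341003), with fold percentiles of 53.5 and 46.9 in WT and 75.3 and 67.5 in Mapk8-KO. The other was in Il1r2, the decoy receptor of IL-1 (chr1:40092432-40092850), with 34 and 38.4 against 66.4 and 78.9. In both genes the Mapk8-KO libraries were above the WT libraries, and neither passed limma on fold (adjusted p = 0.797 for Il1rl2 and 0.539 for Il1r2). By depth-scaled pileup 7 of the 23 receptor regions had Mapk8-KO above, against 24.6% of all regions, and 1 had WT above, against 16.9%.

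Among 12 adaptor and kinase genes, all had an open promoter in every library, 27 regions were called in all 4, and 1, in Irak3, ranked higher in WT, against 4.65% of all regions. By depth-scaled pileup 5 of the 27 had WT above and 6 had Mapk8-KO above, against 16.9% and 24.6% of all regions. Irak3 encodes a kinase-like inhibitor of the pathway, and its region (chr10:120188555-120188855) had fold percentiles of 32.6 and 35.7 in WT and 19 and 3.74 in Mapk8-KO. A region of Irak4 (chr15:94573506-94573912) passed limma on pileup with a log2 difference of -0.92 ± 0.23 (SE) and an adjusted p of 0.0287, but not on fold (adjusted p = 0.852). One region of Irak2, of 41 regions of these genes, was called in Mapk8-KO alone, with pileups of 20 and 14, against 1.65% of all regions.

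Of 12 genes for processing and the inflammasome, 5 had an open promoter, Casp1, Casp4 and Aim2 among them, while Nlrp3 and Ctss had no region. Here 1 region, past the end of Gsdmd, which encodes a pore-forming protein, was called in WT alone (pileups of 22 and 12), and 1 near Prtn3, a protease gene of neutrophils, in Mapk8-KO alone (11 and 10), out of 26 regions and against 2.17% and 1.65% of all regions. Of the 12 regions called in all 4 libraries, 3 had WT above in depth-scaled pileup, all 3 at Aim2, and 1 had Mapk8-KO above. Over all regions the shares were 16.9% and 24.6%. The 4 other ligand and binding protein genes, Il18, Il33, Il1f10 and Il18bp, had 7 regions called in all 4 libraries. None of the 7 was ranked higher in WT or in Mapk8-KO, against 4.65% and 4.07% of all regions. By depth-scaled pileup 2 had WT above and 0 had Mapk8-KO above, against 16.9% and 24.6% of all regions. The Il1f10 regions are also among the 50.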

How the data were processed

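The files hold MACS2 narrowPeak intervals, one file per library. Per the study's methods, paired reads were mapped to mm10 with Bowtie2, reads with several hits or low mapping quality were removed, and peaks were called with a q setting of 0.05, with no control sample named. The highest deposited q was 0.0097. GEO's processing notes also list Trimmomatic 0.36 and STAR 2.5.3, with no role given. The deposited columns are a score, a fold enrichment (ratio of pileup to local background, with 1 added to each), -log10 p-values and q-values, and the summit position. Read counts were not used here, so summit pileup was solved from the authors' fold and -log10 p, and 99.996% or more came out whole within 0.05.

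Peaks overlapping by 1 bp were merged and the highest value kept. Log2 fold, centred on the median, was tested with limma 3.58.1 (trend, Benjamini-Hochberg, 40159 regions, R 4.3.3). A first run on simulated data used larger changes and a smaller spread than these data have. It therefore does not show that differences of the size seen here would be found. The study calls the samples of a group independent, but the sources used here do not say how animals were divided among them, so p-values cover only the spread between these samples. Genes came from GENCODE vM21, sequences from GRCm38, and the inverted copy from Biopython alignment. Named regions were those within 2 kb of a start, in a gene, different by genotype, or among the top 3 of each place by fold percentile in the lowest library. Regions, lists and tests were chosen with earlier results of these data known. Alternatives were other flanks, q, list lengths, gaps, measures, scalings, the replicate block and leaving out each library. Counting intervals cover counting error only.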

Additional observations from a re-analysis of the deposited data

How the results depend on the processing

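The 50 regions became 33 when each list was shortened to its top 49856 peaks, and 40 to 50 when a library was left out. Regions ranked higher in WT, 1 of 21, were 2 with a gap of 5 points, 0 with 20, 2 by -log10 p, 3 by pileup and 2 to 4 without one library. Those ranked higher in Mapk8-KO, also 1, were 0 by pileup and 1 to 6 without one library. WT-only and Mapk8-KO-only calls ran from 2 to 7 and from 0 to 10 without one library, with no share over all regions computed. Over all regions limma called 243 by pileup, 633 by local background and 0 to 812 without one library, the most without Mapk8-KO 1, and none of the 21 in any of these. The median log2 difference of the 21 regions was -0.002 by fold, -0.137 by pileup with or without the replicate block, and -0.0741 to 0.068 without one library. In pileup, WT stood above in 10 of the 21 and Mapk8-KO in 3; by fold these were 5 and 3, by pileup over the lowest background 12 and 1, by local background over its lowest value 14 and 1, and without one library 11 to 13 and 3 to 7. Scalings by the lowest background, the median of ratios, fold or local background were chosen after seeing the data. Directions turned at Il36b by fold (0.059), at Il36rn without Mapk8-KO 2 (-0.000124 to 0.433 without one library) and at Il1rn by the lowest background (-0.0015). AP-1 was in 20% of regions within 50 bp of the summit. The cause of these changes was not tested.

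The replicate numbers are shared by both groups, but nothing says that they pair the samples, and the changes from replicate 1 to 2 correlated at r = 0.102 over 40159 regions. With the replicate block, 2 regions stood above in WT by rank and 2 below, limma called 0 regions by fold, and 386 by pileup, again none of the 21.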
